A study of Mus musculus with 6 samples.

Results

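Synaptic organisers are adhesion and secreted proteins that join the presynaptic to the postsynaptic side and recruit the machinery of the synapse. The 8 genes described here encode 3 cerebellins (Cbln1, Cbln2, Cbln4), 2 neurexins (Nrxn2, Nrxn3) and 3 neuroligins (Nlgn1, Nlgn2, Nlgn3). They were found by symbol among 18193 genes that have a probe set assigned to them alone. All 8 were found, with 19 probe sets between them, and all 8 were among the 12958 genes that passed the filter on low values.

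Neurexins are presynaptic transmembrane proteins, each gene giving a long alpha and a short beta form from separate promoters, and neuroligins are their classical postsynaptic ligands. Cerebellins are secreted proteins of the C1q family that form a bridge between neurexins and postsynaptic receptors, such as the delta glutamate receptors. In the auditory brainstem, sound-evoked input reaches the cochlear nucleus, whose axons form the calyx of Held, a giant excitatory ending, in the trapezoid body.

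RNA came from 3 nuclei of the auditory brainstem of male C57BL/6J mice, for which the labels name no genetic change or drug. The nuclei were the ventral part of the cochlear nucleus (VCN), the lateral superior olive, here LSO, and the MNTB, the medial trapezoid body nucleus. Each of 6 Affymetrix arrays held 1 pool of tissue from 6 mice at postnatal day 3 (P3) or from 3 mice at postnatal day 14 (P14), with 1 array per nucleus and age. Values are log2 expression values that the authors deposited, and a difference of 1 is a doubling. Age was tested over the 3 nuclei and nuclei over the 2 ages with limma, adjusted by Benjamini-Hochberg over all tested genes (threshold 0.05). With no repeated pool, a p-value reflects how far a difference recurred across nuclei or ages, and the spread between animals is unknown. In bulk tissue, fewer cells of a type and less RNA per cell cannot be told apart.

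Array medians lay between 6.27 and 6.31 log2 units. Pool size went with age and cannot be told apart from it. The Gapdh control, a measure of RNA integrity, gave a 3′ minus 5′ signal of 1.21 to 1.41 at P3 and 1.06 to 1.11 at P14, and its part in the age results was not tested. The mean level of 10 pan-neuronal genes was 11.83 to 11.99 at P3 and 11.45 to 11.86 at P14. All 7 measured oligodendrocyte genes rose with age, by a median of 3.11 log2 units. As a check of the tissue labels, Slc6a5, the glycine transporter gene that marks glycinergic neurons such as those of MNTB, was highest in MNTB at both ages (12.50 and 13.02).

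A promoter table from RefSeq (build GRCm38.p6, 250 bases before to 50 bases after an annotated start) held 4 of the 8 genes. They are shown because Cbln4 had age differences of at least 0.5 log2 units in opposite directions in VCN and LSO, while Nlgn1, Nlgn2 and Nrxn3 fell with age. Capitals mark the GC box, GGGCGG on either strand. Each is written 5′ to 3′ on the strand of the gene.
Cbln4, minus strand, chr2:172043417-172043716: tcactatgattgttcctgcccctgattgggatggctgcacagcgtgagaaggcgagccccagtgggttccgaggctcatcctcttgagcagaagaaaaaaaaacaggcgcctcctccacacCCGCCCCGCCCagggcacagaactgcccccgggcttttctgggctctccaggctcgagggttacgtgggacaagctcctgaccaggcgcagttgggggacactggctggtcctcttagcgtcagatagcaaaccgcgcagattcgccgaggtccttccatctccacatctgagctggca
Nlgn2, minus strand, chr11:69837735-69838034: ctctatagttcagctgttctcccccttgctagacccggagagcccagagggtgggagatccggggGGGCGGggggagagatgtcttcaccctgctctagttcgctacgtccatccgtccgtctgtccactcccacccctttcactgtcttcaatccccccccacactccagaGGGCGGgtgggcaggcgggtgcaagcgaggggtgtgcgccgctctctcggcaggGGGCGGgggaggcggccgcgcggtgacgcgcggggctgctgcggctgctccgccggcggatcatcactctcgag
Nlgn1, minus strand, the more upstream of 2 starts, chr3:26331860-26332159: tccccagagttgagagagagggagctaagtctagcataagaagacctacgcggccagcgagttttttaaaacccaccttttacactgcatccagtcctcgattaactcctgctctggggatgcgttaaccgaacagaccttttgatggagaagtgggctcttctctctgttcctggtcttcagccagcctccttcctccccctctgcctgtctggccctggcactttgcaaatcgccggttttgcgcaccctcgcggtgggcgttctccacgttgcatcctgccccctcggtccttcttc
Nrxn3, plus strand, the most downstream of 3 starts, chr12:89812233-89812532: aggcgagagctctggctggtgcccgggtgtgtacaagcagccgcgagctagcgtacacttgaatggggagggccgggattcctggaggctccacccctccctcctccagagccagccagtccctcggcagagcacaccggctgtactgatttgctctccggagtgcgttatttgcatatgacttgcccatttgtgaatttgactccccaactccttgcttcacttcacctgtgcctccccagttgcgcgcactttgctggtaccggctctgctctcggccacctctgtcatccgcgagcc

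A GC box was present in 35.7% of the 32851 promoters held by RefSeq there. Cbln4 held 2 matches that overlap, and Nlgn2 held 3 separate ones. The stretches of Nlgn1 and Nrxn3 held none. The TATA box TATAAA (13.6% of all promoters) and the cyclic AMP response element TGACGTCA (1.79%) were found on neither strand of these 4. GC content was 60.3% for Cbln4, 68.7% for Nlgn2, 55.7% for Nlgn1 and 60.7% for Nrxn3, against a median of 52.7% over all promoters. It was lower at the other annotated starts, 47.3% and 47.7% for Nrxn3 and 44.7% for Nlgn1, and the second start of Nrxn3 held 1 GC box. These describe letters in a window, and the arrays did not measure promoter use.

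The first comparison asks how the genes differed between P3, before mice begin to hear, and P14, shortly after. Both neurexin genes, all 3 neuroligin genes and Cbln2 were lower at P14, by 0.39 to 1.67 log2 units, and none of the 8 rose. Thus 6 of 8 genes fell in limma's test, where 17.7% of all tested genes fell and 23.4% rose (41% in either direction). Their median age difference was -0.51, against 0.032 over all tested genes. In 5 of the 8 every P14 value lay below every P3 value. That was so for 23.3% of all tested genes, while 30.3% had every P14 value above (53.6% without overlap in all). Of the 19 probe sets, all 19 had a difference below 0, and 11 fell when each was tested on its own. Among all 27000 probe sets tested singly, 49.8% had a difference below 0, 19.6% fell and 21.7% rose.

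**Figure D1:**
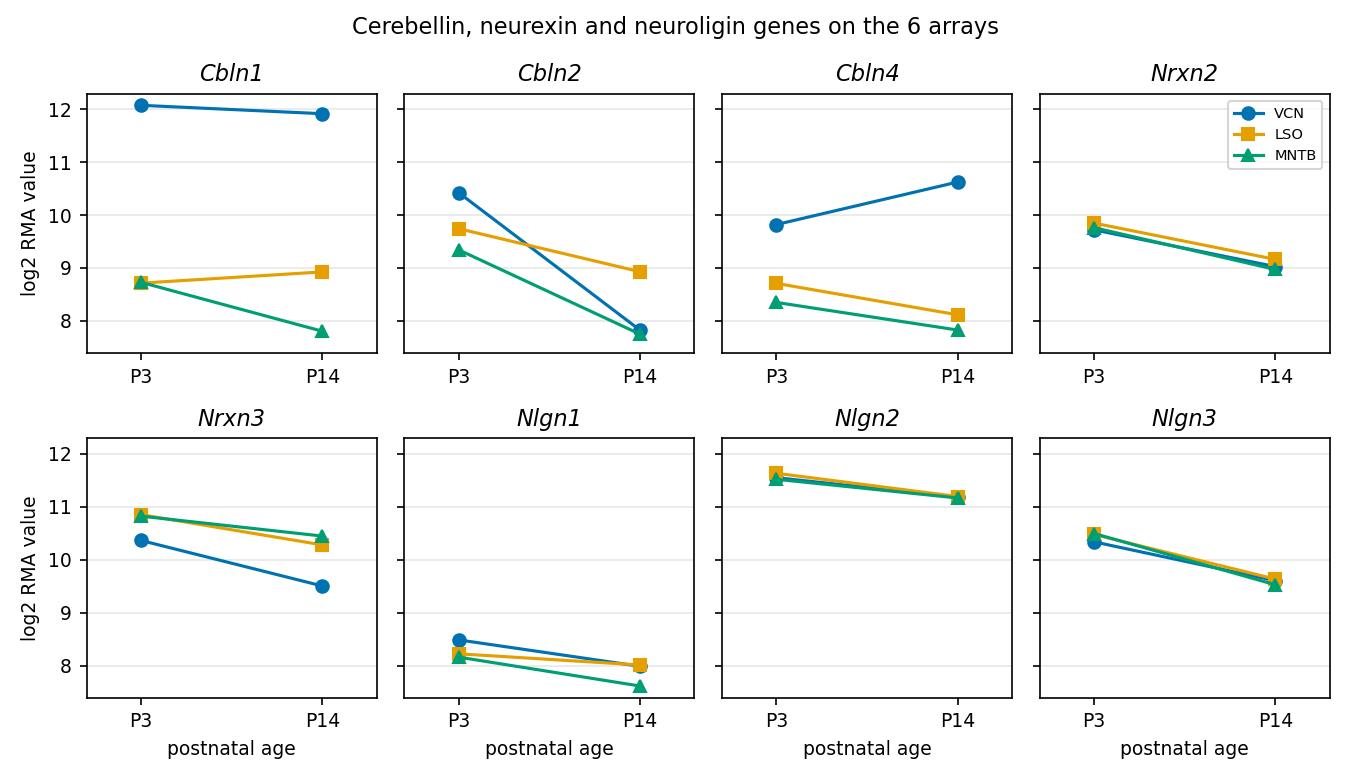
Log2 values (vertical axis) of the 8 genes at P3 and P14, 1 point per array, joined by nucleus. The lines of Nrxn2, Nlgn2 and Nlgn3 nearly coincide and slope down, those of Cbln1 and Cbln4 are set apart by nucleus, and Cbln2 drops most steeply in VCN.

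Cbln2 encodes a cerebellin that binds neurexins and delta receptors. It read 10.42, 9.74 and 9.34 in VCN, LSO and MNTB at P3, and 7.83, 8.93 and 7.75 at P14. All 3 P14 values lay below all P3 values. Cbln2 fell by 1.67 ± 0.31 log2 units (standard error, 3 nuclei, 3.18-fold, adjusted p = 0.00887). The difference was -2.60 in VCN, -1.59 for MNTB and -0.81 for LSO. VCN thus held the highest of the 3 values at P3, and LSO held it at P14. Of 12958 tested genes it ranked 102 from the lowest age difference. Cbln2 passed under all 15 alternatives of the analysis, and it has 1 probe set, so no second measurement checks it.

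Nrxn2, a neurexin gene, read 9.72, 9.85 and 9.76 in VCN, LSO and MNTB at P3, and 9.03, 9.16 and 8.97 at P14. The age groups did not overlap, and the nuclei of an age lay close together, with standard deviations of 0.065 and 0.098 (n = 3 nuclei). Nrxn2 fell by 0.72 ± 0.090 (1.65-fold, adjusted p = 0.00231). Its second probe set had a difference of -0.37 (adjusted p = 0.0628 with probe sets tested singly).

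Nrxn3, also a neurexin gene, read 10.36, 10.85 and 10.82 in VCN, LSO and MNTB at P3, and 9.50, 10.28 and 10.45 at P14. The ages overlapped, since VCN at P3 lay below MNTB at P14, but within each nucleus the P14 value was the lower. Nrxn3 fell by 0.60 ± 0.11 (1.52-fold, adjusted p = 0.00831). Of its 5 probe sets, 4 fell when tested singly. With the median of the sets, Nrxn3 stood at -0.36 and did not pass (adjusted p = 0.0875).

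The neuroligins differ in the synapses they are known for. Nlgn1 is found mainly at excitatory synapses, Nlgn2 at inhibitory ones, where it binds the scaffold gephyrin, and Nlgn3 at both. Nlgn3 read 10.34, 10.48 and 10.49 in VCN, LSO and MNTB at P3, and 9.60, 9.63 and 9.53 at P14. No P14 value reached a P3 value. Nlgn3 fell by 0.85 ± 0.089 (1.8-fold, adjusted p = 0.00134). Of its 3 probe sets 2 fell, and the remaining one had a difference of -0.17. With the median of the sets, Nlgn3 did not pass (-0.17, adjusted p = 0.248).

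Nlgn2 spanned the narrowest range of the 8, 0.47 log2 units. It read 11.55, 11.63 and 11.52 in VCN, LSO and MNTB at P3, and 11.18, 11.19 and 11.16 at P14. The P14 values had a standard deviation of 0.014 (n = 3 nuclei), and the ages did not overlap. Nlgn2 fell by 0.39 ± 0.065 (1.31-fold, adjusted p = 0.00618). Its second probe set had a difference of -0.19 (adjusted p = 0.284 tested singly). With the median of both, Nlgn2 stood at -0.29 (adjusted p = 0.0506).

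The 2 probe sets of Nlgn1 differed in the size of the fall. The one used for the gene read 8.48, 8.22 and 8.16 in VCN, LSO and MNTB at P3, and 7.99, 8.01 and 7.61 at P14. Its P14 values all lay below those of P3. It fell by 0.42 ± 0.12 (adjusted p = 0.0375). Leaving out an array leaves its nucleus with 1 array, which the model fits exactly and assumes to vary like the others, so that the spread comes from the other 2 nuclei alone. The Nlgn1 call was lost when any 1 of the 6 arrays was left out, with differences of -0.52 to -0.35 and adjusted p of 0.0540 to 0.189. The other set read 8.54, 8.33 and 8.40 in VCN, LSO and MNTB at P3, and 6.83, 6.29 and 6.07 at P14. It fell by 2.03 ± 0.15 (adjusted p = 0.000391 tested singly). The stretch of transcript that each set reads was not analysed here.

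**Figure D2:**
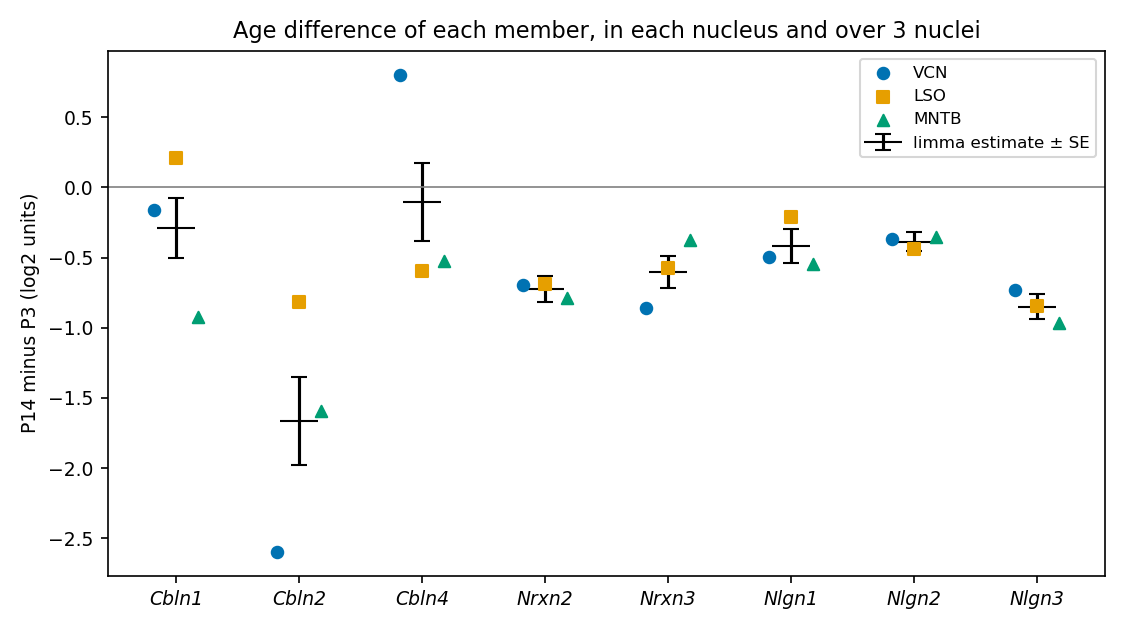
P14 minus P3 in log2 units (vertical axis) for each gene; coloured points are the differences within VCN, LSO and MNTB, and the black bar is the limma estimate with its standard error. The points of Nrxn2, Nlgn2 and Nlgn3 lie close together below 0, whereas those of Cbln4 lie on both sides, at 0.80 in VCN and -0.59 in LSO.

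Cbln1 and Cbln4 did not pass the age test. Cbln1, the cerebellin best known from the synapse of cerebellar granule cells on Purkinje cells, had an age difference of -0.29 with a 95% confidence interval of -0.81 to 0.23 (adjusted p = 0.315). It was -0.16 in VCN, 0.21 for LSO and -0.92 for MNTB. Its other 2 probe sets gave -0.41 and -0.37 in VCN, -0.11 and -0.028 for LSO, and -1.68 and -1.62 for MNTB. Tested singly in limma, they had age differences of -0.73 and -0.67 and did not pass (adjusted p = 0.0834 and 0.107). Cbln4, which also binds the netrin receptor DCC, had an age difference of -0.10 with an interval of -0.79 to 0.58 (adjusted p = 0.790). It was 0.80 in VCN, -0.59 for LSO and -0.52 for MNTB. With either VCN array left out, both the estimate and its spread came from LSO and MNTB alone, and the difference was -0.56 and passed (adjusted p = 0.0166 without P3, 0.0171 without P14). With 1 array per nucleus and age, whether the age change differed between nuclei could not be tested.

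The age differences were also taken relative to the pan-neuronal mean, which moved the median of all tested genes up by 0.20 log2 units. On that scale Cbln2 (-1.47), Nlgn3 (-0.65) and Nrxn2 (-0.52) still fell. Nrxn3 (-0.40), Nlgn1 (-0.22) and Nlgn2 (-0.19) did not pass (adjusted p = 0.0652, 0.327 and 0.378). The 10 pan-neuronal genes themselves changed with age. Of these 4 fell and 2 rose, where 17.7% of all tested genes fell and 23.4% rose. From P3 to P14 their mean went from 11.83 to 11.45 in MNTB, from 11.99 to 11.75 in LSO and from 11.84 to 11.86 in VCN.

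The second comparison asks which genes differed between the nuclei. Cbln1 was far higher in VCN than in either olivary nucleus at both ages, and Cbln4 was also highest in VCN, with smaller differences that did not pass. Of the 8 genes 1, Cbln1, was lower in MNTB than in VCN, where 0.44% of all tested genes were lower and 0.602% differed in either direction. Again 1 of 8, Cbln1, was higher in VCN than in LSO (0.17% higher, 0.201% lower and 0.37% either way). Between MNTB and LSO 0 of 8 passed in limma, against 0.162% of all genes, and 0 of 8 had an unadjusted p below 0.05, against 6.8% of all genes. That unadjusted count was 3 of 8 for MNTB against VCN (9.53% of all genes). It was also 3 of 8 for VCN against LSO (8.98% of all genes).

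**Figure D3:**
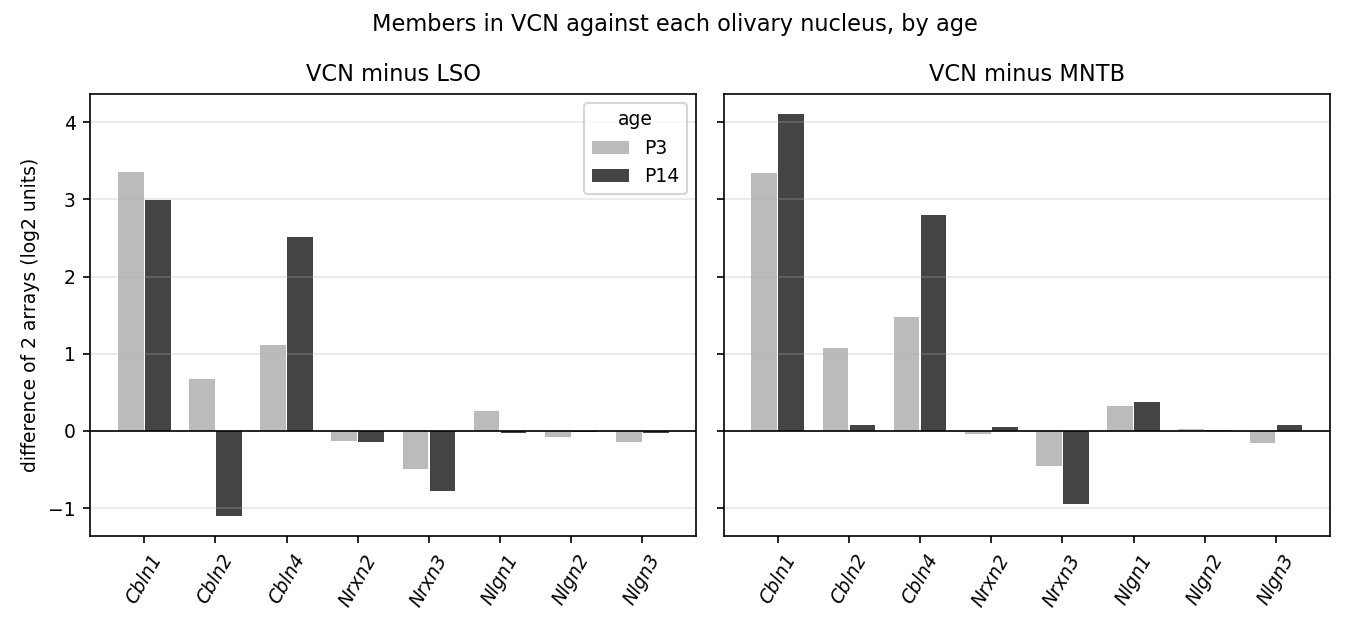
Difference of the VCN array from the LSO array (left) and from the MNTB array (right) of the same age, in log2 units, for each gene; light bars are P3 and dark bars P14, each the difference of 2 arrays with no error. Cbln1 is 2.99 to 4.11 units higher in VCN and Cbln4 1.11 to 2.80, while Nrxn2, Nlgn2 and Nlgn3 stay near 0.

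Cbln1 read 12.07, 8.71 and 8.73 in VCN, LSO and MNTB at P3, and 11.91, 8.93 and 7.81 at P14. Both VCN values lay above all 4 olivary ones. Cbln1 differed by -3.73 ± 0.26 log2 units for MNTB minus VCN (13.2-fold, adjusted p = 0.00899) and by 3.17 ± 0.26 for VCN minus LSO (9.03-fold, adjusted p = 0.0119). Among all tested genes it ranked 10 from the lowest for the first and 8 from the highest for the second. Its other 2 probe sets gave -4.05 and -4.14 for MNTB minus VCN and 3.43 and 3.65 for VCN minus LSO, and all of these passed. When the P3 array of LSO was left out, VCN minus LSO did not pass (2.80, adjusted p = 0.128) and the same held for the P14 array (3.55, adjusted p = 0.0552). MNTB minus LSO was 0.015 at P3 and -1.12 at P14, and over both ages -0.55 with an interval of -1.19 to 0.083.

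Cbln4 read 9.82, 8.71 and 8.35 in VCN, LSO and MNTB at P3, and 10.62, 8.12 and 7.83 at P14. VCN was the highest and MNTB the lowest at each age. VCN minus LSO was 1.11 at P3 and 2.51 at P14, and VCN minus MNTB 1.47 and 2.80. Over both ages MNTB minus VCN was -2.13 ± 0.34 (adjusted p = 0.0854) and VCN minus LSO 1.81 ± 0.34 (adjusted p = 0.143), so neither passed. With the P3 array of VCN left out, so that VCN was 1 array and gave no spread, both passed (-2.81, adjusted p = 0.00345, and 2.49, adjusted p = 0.00402). The same held with that of P14 left out (-1.45, adjusted p = 0.0203, and 1.13, adjusted p = 0.0494). These values carry no spread of VCN. With all 6 arrays kept and centred on pan-neuronal genes, both differences of Cbln4 also passed. No second probe set checks Cbln4.

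Nrxn3 had its lowest value in VCN at each age. VCN minus LSO was -0.49 at P3 and -0.78 at P14, and VCN minus MNTB -0.46 and -0.94. Over both ages MNTB minus VCN was 0.70 ± 0.14 (adjusted p = 0.140) and VCN minus LSO -0.63 ± 0.14 (adjusted p = 0.204), so neither passed. With the P3 array of VCN left out, so that VCN again gave no spread, the first was 0.89 and passed (adjusted p = 0.0437). MNTB minus VCN also passed with all 6 arrays kept and centred on pan-neuronal genes, and VCN minus LSO did not. All 5 probe sets of Nrxn3 were lowest in VCN at P14, and 4 of 5 at P3.

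None of the remaining 5 genes passed between nuclei. Their 95% intervals are for the probe set used and hold no spread between animals. MNTB minus VCN lay within -0.22 to 0.17 for Nlgn2, -0.23 to 0.31 for Nlgn3, -0.28 to 0.26 for Nrxn2, -0.71 to 0.015 for Nlgn1 and -1.52 to 0.36 for Cbln2. For the sets used of Nlgn2, Nlgn3 and Nrxn2 these bounds stay under 0.5 log2 units, and for Cbln2 they are wide. The other probe sets, tested singly, gave MNTB minus VCN of 0.16 ± 0.15 for Nlgn2 and 0.28 ± 0.14 and 0.32 ± 0.15 for Nlgn3. They gave 0.19 ± 0.16 for Nrxn2 and -0.45 ± 0.19 for Nlgn1. None of these passed, and their standard errors were larger than those of the sets used.

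Some markers of other cells were also high in VCN. Cbln1 is a gene of granule cells, which lie in the cochlear nucleus and in the neighbouring cerebellum. Of 10 listed granule cell markers, Cbln3 among them, 9 had a probe set and 8 were tested. Of these 2 were higher in VCN than in LSO, against 0.17% of all tested genes, and 3 were lower in MNTB than in VCN, against 0.44%. Neurod1 is in both counts, but its mean over the LSO and MNTB arrays lay below the filter of 5.57. It was thus tested only through VCN, as Cbln3 was, and its calls are a description. The mean level of the list was 8.99, 6.91 and 6.65 in VCN, LSO and MNTB at P3, and 9.27, 7.36 and 6.75 at P14. Neurod1, a transcription factor gene of that lineage, read 9.90 and 8.97 in VCN, against 4.84 to 6.00 elsewhere. Zic1, also of that lineage, read 12.45 and 11.84 in VCN and 6.14 to 8.69 elsewhere. Gabra6, which encodes a GABA receptor subunit of mature granule cells, read 7.97 in VCN at P14 and 3.26 to 4.37 on the other arrays, no higher than the unspiked control sets (2.84 to 4.42). Reln, on the same list, read 9.35 in VCN at P14, below the 9.54 of LSO and of MNTB. Neither Reln nor Fat2, Calb2 and Zic2, also listed, passed between nuclei. The part of granule cells in the Cbln1 and Cbln4 differences was not tested.

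The choroid plexus gene Ttr read 12.58 in VCN at P14 and 6.61 to 6.93 on the other arrays. Otx2, a transcription factor gene listed with it, read 9.34 in VCN at P3 and 6.52 at P14, against 3.04 to 3.34 elsewhere. Otx2, Folr1, Kcne2, Clic6 and Kl, all listed as choroid plexus genes, had means below the filter of 5.57 and were not tested. All but Otx2 were highest in VCN at P14, Kl only narrowly. Folr1 read 6.26 there and 4.76 to 5.52 elsewhere, Kcne2 4.80 and 3.36 to 3.57, Clic6 5.48 and 4.44 to 5.05, and Kl 4.98 and 4.62 to 4.96. Cbln1 was 3.36 log2 units higher in VCN than in LSO at P3 and 3.34 higher than in MNTB. At P14 these differences were 2.99 and 4.11 (1 array per nucleus and age). The part of choroid plexus in the VCN differences was not tested. The glutamate transporter gene Slc17a6, of excitatory neurons, was also highest in VCN, at 11.06 and 11.04, against 7.81 to 9.96.

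**Figure D4:**
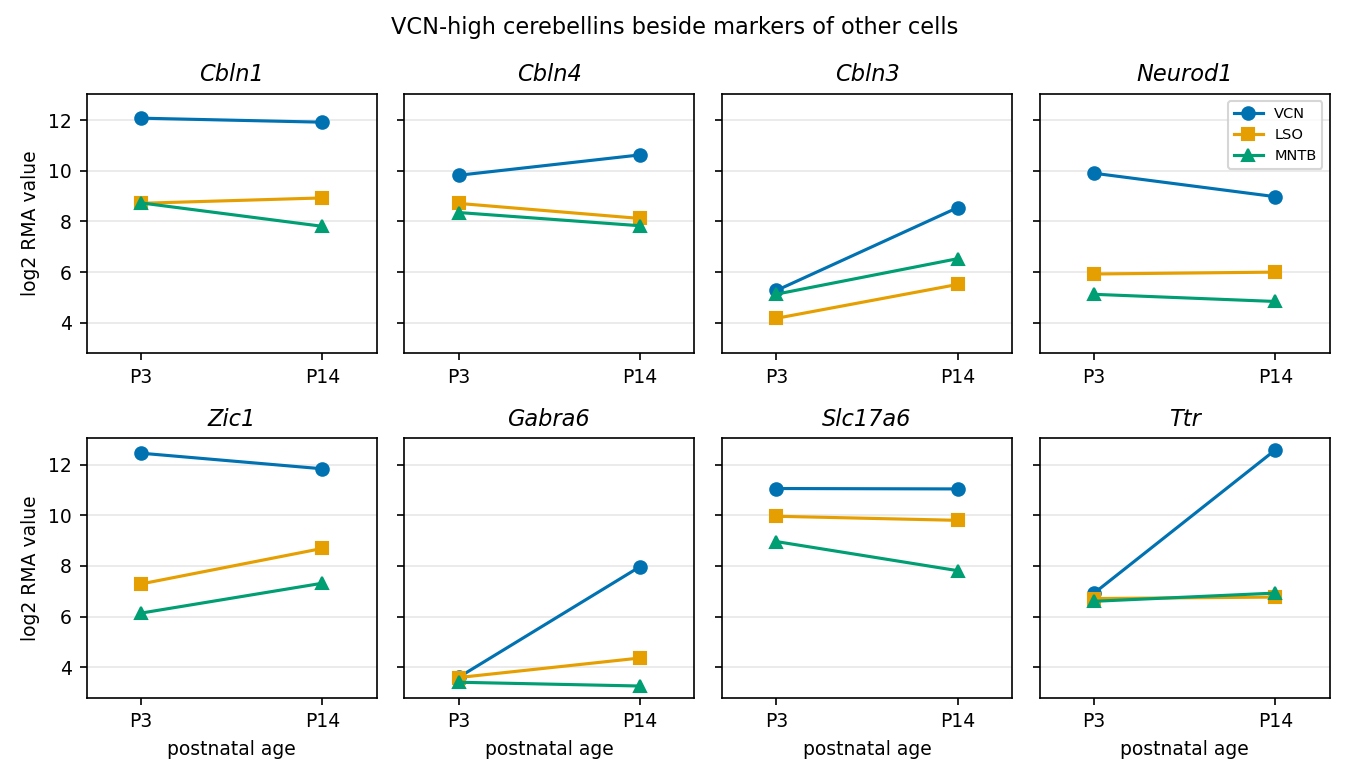
Log2 values (vertical axis) at P3 and P14, 1 point per array joined by nucleus, of Cbln1, Cbln4 and Cbln3 beside the granule cell genes Neurod1, Zic1 and Gabra6, the glutamate transporter gene Slc17a6 and the choroid plexus gene Ttr. Cbln1, Neurod1 and Zic1 are high in VCN at both ages, whereas Cbln3, Gabra6 and Ttr stand out in VCN at P14.

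The genes closest in profile, by the smallest root mean square difference of mean-centred values over the 6 arrays, were Neurod1 (0.42) and Bnc2 (0.47) for Cbln1. For Cbln2 they were Gng2 (0.27) and Cdh8 (0.27), for Cbln4 1110017D15Rik (0.34) and Calml4 (0.37) and for Nrxn3 Vcam1 (0.097) and Crispld1 (0.13). The values of the remaining 4 genes spanned less than 1 log2 unit and were not matched. Every LSO and MNTB value of Bnc2 (3.82 to 5.36) and of Calml4 (4.95 to 5.38) lay below the filter on low values. Like Neurod1, Bnc2 and Calml4 thus passed that filter only through VCN. The matches to Neurod1, Bnc2 and Calml4 are therefore a description.

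Among the direct partners of these proteins Dcc fell with age, Grid1 and Neo1 did not pass, and Cbln3 is given as a description. Of 6 listed, 4 were analysed here. Cbln3, a cerebellin that is secreted together with Cbln1 by granule cells, read 5.27, 4.17 and 5.13 in VCN, LSO and MNTB at P3, and 8.54, 5.51 and 6.53 at P14. VCN at P14 stood far above the other arrays, and the LSO value of P3 lay within the range of the unspiked controls. Over the 5 arrays other than VCN at P14 the mean was 5.32, below the filter of 5.57, so Cbln3 was tested only through that array. Its age difference of 2.00 ± 0.39 (adjusted p = 0.00966) is therefore a description. Dcc, which encodes the netrin receptor that Cbln4 binds, read 9.33, 9.37 and 9.84 in VCN, LSO and MNTB at P3, and 8.27, 8.42 and 8.49 at P14. It fell by 1.12 ± 0.12 (adjusted p = 0.00132), and its 3 probe sets fell by 1.12 to 1.39. Grid1, which encodes the delta receptor GluD1, had a difference of -0.27 (adjusted p = 0.177), while its second probe set stood at -0.56 (adjusted p = 0.0146 tested singly). Neo1, which encodes the DCC relative neogenin, had a difference of -0.027 (adjusted p = 0.760).

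Of 81 other organiser genes listed, those partners included, 73 had a probe set and 72 were tested. With age 34 fell (47.2%) and 7 rose (9.72%), where 17.7% of all tested genes fell and 23.4% rose. The risers included Cbln3, which was tested only through VCN at P14. The median difference was -0.37, against 0.032 over all tested genes. Among 5 neuroligin partners 4 fell. One of these, Mdga1, whose protein keeps neuroligins from binding neurexins, fell by 1.34 ± 0.19 (adjusted p = 0.00360). Of 21 neurexin ligands and binding partners 9 fell and 1 rose. Of 25 other adhesion organisers 13 fell and 2 rose. The teneurin genes Tenm2 and Tenm1 fell by 1.46 ± 0.091 (adjusted p = 0.000416) and 1.24 ± 0.14 (adjusted p = 0.00163), and the adhesion gene Igsf11 rose by 1.20 ± 0.15 (adjusted p = 0.00233). Cadm4, of the same group, rose by 0.45 ± 0.093 (adjusted p = 0.0122), but did not pass without either LSO array (adjusted p = 0.0642 and 0.0648).

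Of 12 LAR-type phosphatases and their ligands 6 fell and 2 rose, where 17.7% of all tested genes fell and 23.4% rose. The risers were Il1rap, which encodes a ligand of such phosphatases, at 1.87 ± 0.15 (adjusted p = 0.000637), and the phosphatase gene Ptprd, at 0.51 ± 0.13 (adjusted p = 0.0232). Ptprd did not pass without any 1 LSO or MNTB array (adjusted p = 0.0655 to 0.0854). Khdrbs2, which encodes a splicing regulator of neurexins, fell by 1.26 ± 0.12 (adjusted p = 0.000911), and the other 2 splicing regulators did not pass. Of 2 proteases that cleave neurexins or neuroligins 1 rose, Adam10, at 0.37 ± 0.11 (adjusted p = 0.0435), a gene chosen after its value was seen. Like Ptprd, it lost the call without any 1 LSO or MNTB array (adjusted p = 0.187 to 0.193).

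**Figure D5:**
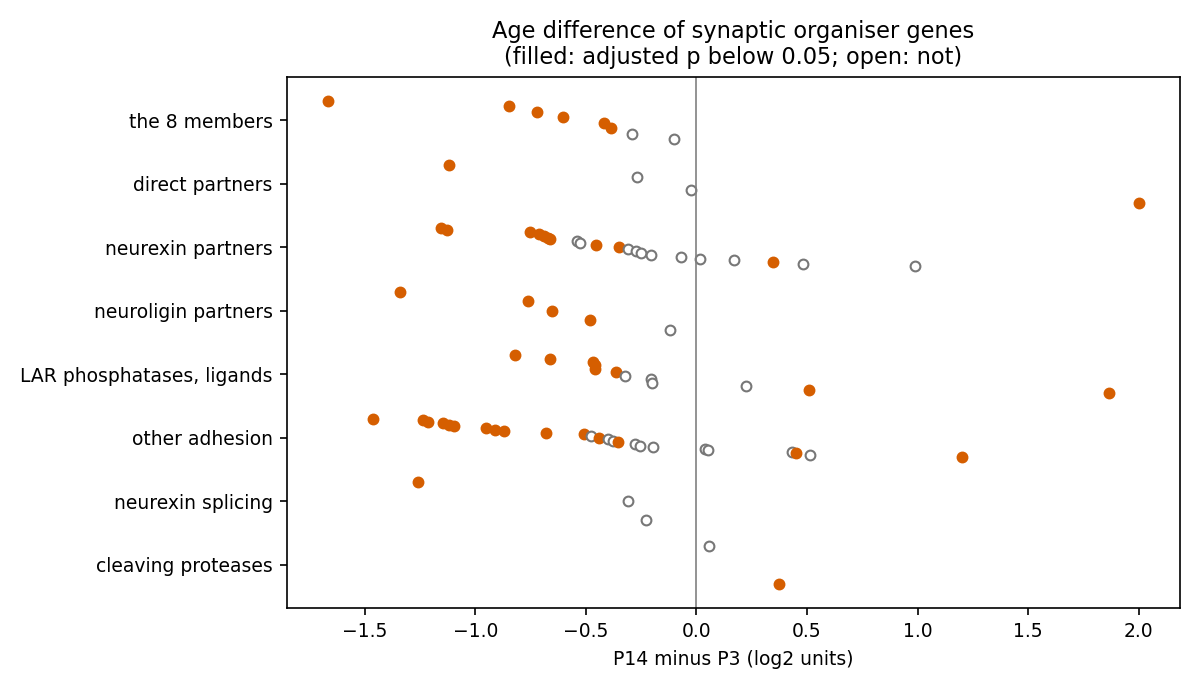
P14 minus P3 in log2 units (horizontal axis) for the 8 genes and for 72 other organiser genes by role, 1 point per gene; filled points passed limma's test and open points did not. Most filled points lie left of 0, and the rightmost are Cbln3 at 2.00, tested only through VCN at P14, and Il1rap at 1.87.

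Between nuclei 2 of the 72 passed. Of all tested genes 0.602% passed for MNTB against VCN, 0.37% for VCN against LSO and 0.162% for MNTB against LSO. Nxph1, whose protein neurexophilin binds alpha-neurexins, read 8.52, 9.84 and 10.17 in VCN, LSO and MNTB at P3, and 7.91, 9.12 and 9.23 at P14. It was lowest in VCN at each age, as Nrxn3 was. MNTB minus VCN was 1.49 ± 0.13 (adjusted p = 0.0183) and VCN minus LSO -1.27 ± 0.13 (adjusted p = 0.0273). Without any 1 LSO or MNTB array Nxph1 passed neither, with adjusted p of 0.0683 to 0.151 for the first and 0.0638 to 0.324 for the second. Nptx1, a neuronal pentraxin gene, read 8.79, 8.66 and 7.73 in VCN, LSO and MNTB at P3, and 9.07, 8.50 and 7.72 at P14. MNTB minus VCN was -1.21 ± 0.15 (adjusted p = 0.0449), and it passed with only the VCN array of P3 left out and not with any of the other 5 left out (adjusted p = 0.0680 to 0.304).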

How the data were processed

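The authors deposited log2 values per probe set, made with RMA per the submitters' processing notes, its version not given in the sources used here. Per the labels' protocols, total RNA was amplified before hybridisation. The platform annotation gives 1 gene to 34945 probe sets, several to 932 and none here to 9160. A gene's brightest probe set (by mean over arrays, names ending in _x_at aside where others exist) stood for it. Genes with a mean at or above the 40th percentile of probe sets (5.57 log2 units) were fitted with limma 3.58.1 (R 4.3.3). The model had additive terms for nucleus and age and a mean-variance trend, 2 residual degrees of freedom and 3.95 of prior, and tests were two-sided. The text names all members, their direct partners, up to 4 largest rises and falls of other organisers, up to 2 each way per nucleus contrast, and the 2 nearest profiles. Members and lists were chosen with earlier results of these data known. The fit was tested on simulated data. Scan dates were not analysed here.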

Additional observations from a re-analysis of the deposited data

Results flagged for a closer look

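Cbln4 had age differences of opposite sign in the nuclei: 0.80 in VCN, -0.59 for LSO and -0.52 for MNTB (log2 units, P14 minus P3). Each is the difference of 2 arrays, and whether the nuclei differ was not tested. In VCN at P14, where Cbln4 was highest, the granule cell gene Gabra6 (7.97) and the choroid plexus gene Ttr (12.58) were high as well, and their part in the result was not tested.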

How the results depend on the processing

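Results were recomputed under up to 15 alternatives. Of 718 recomputed single-gene values 617 kept their sign and side of the threshold, 53 lost the call, 11 gained one, 37 changed sign without passing before or after, and no called value changed sign. The members that fell with age numbered 6. They numbered 3 with each gene at the median of its probe sets, and 3 with arrays centred on pan-neuronal genes. Without nucleus in the model they numbered 4 (Nrxn3 and Nlgn1 then did not pass). With any 1 array left out Nlgn1 lost the call and the others of the 6 kept it. Without either VCN array Cbln4 gained a call, from LSO and MNTB alone. Members passing for MNTB against VCN numbered 1 (3 with pan-neuronal centring, 0 without age in the model, 1 to 3 with 1 array left out) and for VCN against LSO 1 (2 with pan-neuronal centring, 0 without age in the model, 0 to 2 with 1 array left out). For MNTB against LSO the number was 0 in limma throughout. Other organiser genes changed with age numbered 41 (25 to 40 with 1 array left out). All tested genes changed with age numbered 5317 (3142 to 4710 with 1 array left out), of which 3029 rose and 2288 fell, and with pan-neuronal centring 4294 rose and 1246 fell. Over all tested genes MNTB against LSO gave 21 (167 with pan-neuronal centring, 1 without age in the model, 4 to 99 with 1 array left out), MNTB against VCN 78 (433 with pan-neuronal centring, 0 without age in the model, 17 to 215 with 1 array left out) and VCN against LSO 48 (290 with pan-neuronal centring, 1 without age in the model, 4 to 159 with 1 array left out). The cause was not tested. No paired analysis was possible because the labels give no numbers that tie pools to each other, beyond the age differences within nuclei that the model already uses.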
